A study of Mus musculus with 14 samples.

Results

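The 33 genes described here mark macrophages and mast cells, and they were followed through RNAseq of retinal pigment epithelium (RPE) from mice that lack Clic4 in these cells. They were taken from a list of myeloid and mast cell symbols, were all found by symbol among the 42687 genes counted, and are 29 macrophage genes and 4 mast cell proteases. The macrophage genes fall into 12 genes of leukocyte and macrophage identity, 7 Fc receptors, ITAM adaptors and paired receptors, 5 genes of tissue-resident macrophages and 5 innate effectors. The question was how much of each myeloid transcript each RPE preparation held, and whether KO and control preparations of a set differed. The list rests on what the genes are known for and uses no measured value, though earlier results of these data were known when it was drawn up.

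All 14 mice were 3-month-old C57BL/6J males, and RPE cells shaken off trypsin-treated eyecups were pooled from both eyes of each mouse. The KO mice (Best1-Cre+/-; Clic4f/f) carry floxed Clic4 alleles and Cre under the Best1 promoter, which acts in the RPE, so the myeloid genes here were read in preparations in which the RPE is the cell targeted. The WT set holds 3 KO and 3 wild type mice, the Ctrl set 2 KO and 2 Ctrl mice (Clic4f/f, floxed alleles without Cre), and the CreCtrl set 2 KO and 2 CreCtrl mice (Best1-Cre+/-, Cre without floxed alleles). Each control genotype was compared only in its own set, so control genotype and set cannot be told apart.

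Macrophages live in the choroid beneath the RPE and can reach the subretinal space, where they clear debris, present antigen and release proteases, complement and oxidants. Resident tissue macrophages carry scavenger and mannose receptors, and they signal through Fc receptors and through adaptors that hold the activation motif ITAM. Mast cells sit beside the choroidal vessels and store proteases in their granules, chiefly chymases, tryptases and a carboxypeptidase. PU.1, the product of Spi1, is the transcription factor that drives the macrophage programme and binds purine-rich sites at many of its genes.

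Because most of the 29 macrophage genes move together below, their promoters were searched for the letters GAGGAAGT, a core to which PU.1 is known to bind, on both strands (read as ACTTCCTC on the other). In RefSeq sequence of GRCm38.p6, windows from 250 bases before to 50 bases after the start were at hand for 25 of the 33 members. These letters were found in 3 of them (Cd53, Ctss and Pf4), which is 12% of the 25, and in 3.69% of the 27025 genes with such a window. With the bases before the start alone, 1 of the 25 members held them (4%), against 2.79% of all genes. That member was Pf4, the gene of platelet factor 4, which is shown since Pf4 left the common pattern in the libraries described below. The 60 bases before its start lie at chr5:90772375-90772434, plus strand, with the letters in capitals, beginning 10 bases before the start.
Pf4: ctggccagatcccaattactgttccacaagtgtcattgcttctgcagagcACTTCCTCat
A match in a window is a description of its letters, not a site that was shown to be bound.

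The counts of a library summed to between 9828293 and 32384166. Levels are given as CPM, counts scaled to a common library size with TMM factors over all 14 libraries. Clic4, the targeted gene, lay between 62.9 and 227 CPM in the 7 control libraries and between 9.81 and 33.7 CPM in the 7 KO libraries. The summed level of RPE markers was 73550 to 84580 CPM in the KO libraries and 16710 to 60270 CPM in the controls, lowest in the WT mice. Fibroblast markers summed to 151 to 771 CPM in the KO libraries and to 1287 to 7806 CPM in the controls, and the 10 markers fell in 10, 0 and 9 of 10 cases against WT, Ctrl and CreCtrl. Of all genes tested, 17.6%, 0% and 12.2% fell in these comparisons. Endothelial markers (35.7 to 160.7 against 122 to 553 CPM), pericyte and smooth muscle markers (223 to 369.5 against 409 to 2081 CPM) and immediate-early genes (511 to 2785 against 5917 to 18780 CPM) were also at lower sums in KO than in control libraries of every set. Erythrocyte markers fell in 5 of 5 cases against WT and 2 of 5 against CreCtrl, and rod and cone markers fell in 9 of 10 cases against CreCtrl (226 to 347 CPM in KO, 936 to 4300 CPM in CreCtrl, summed) and 0 of 9 against WT. The fibroblast, endothelial, pericyte and smooth muscle, immediate-early and erythrocyte values moved with the members in the WT and CreCtrl sets. RPE markers moved the other way there, and rod and cone markers fell with the members only against CreCtrl. In the Ctrl set the median log2 fold changes of the fibroblast, endothelial and immediate-early lists were -2.94, -2.15 and -2.81, while those of the identity genes, receptors and effectors below were 0.03, 0.12 and 0.13 and that of the resident macrophage genes was -1.46. The part of these markers in the results was not tested. In bulk preparations, fewer macrophages or mast cells and less of a transcript per cell cannot be told apart.

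**Figure D1:**
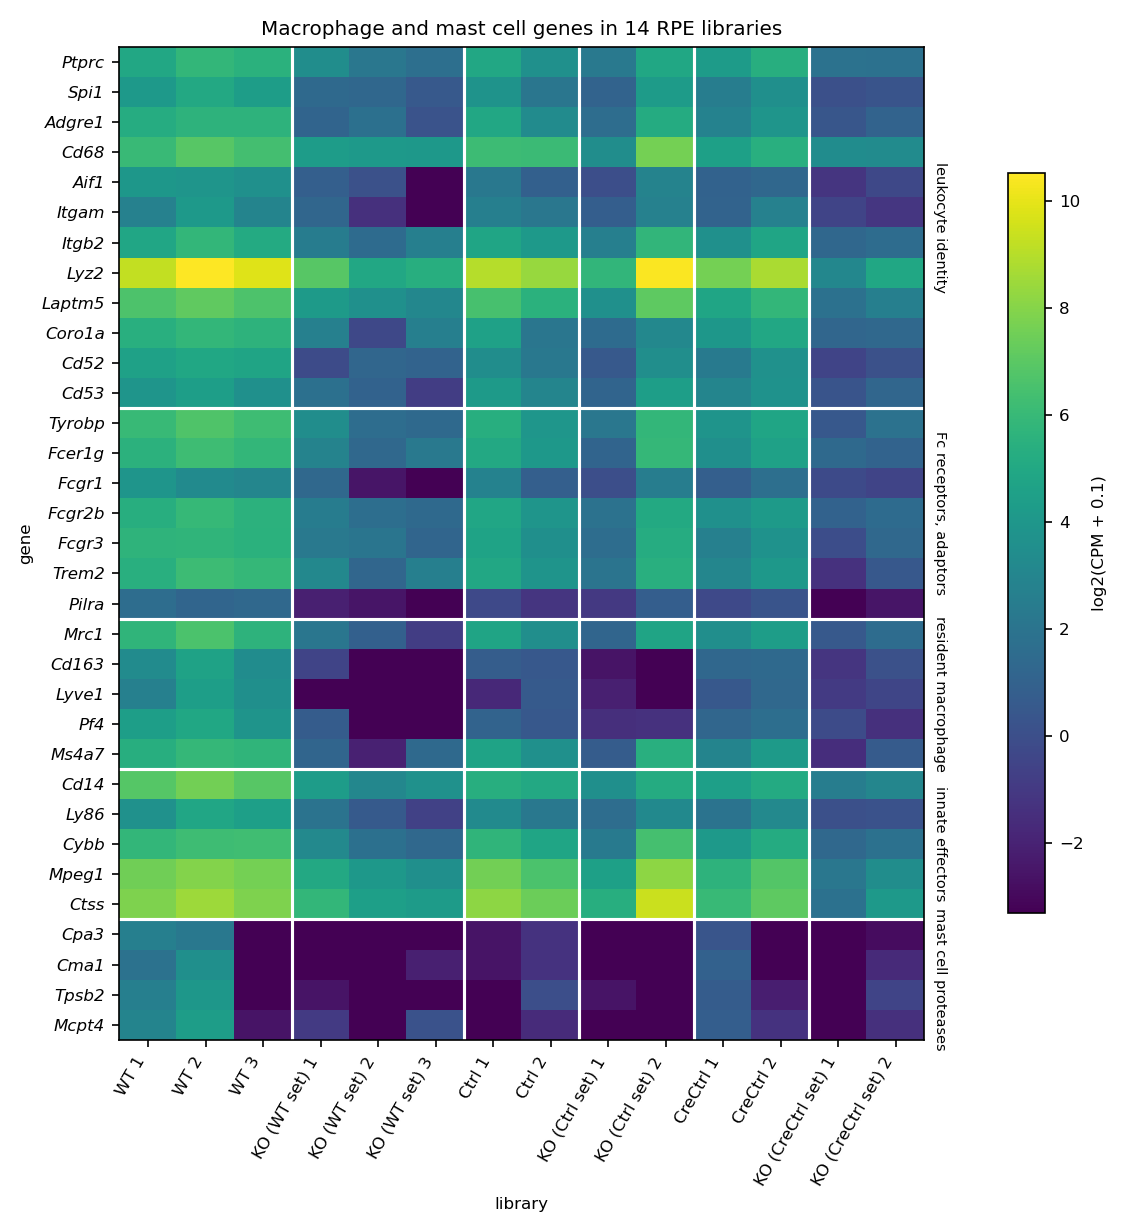
Level of the 33 genes (rows, grouped by role) in the 14 libraries (columns, grouped by set) as log2(CPM + 0.1), with the colour scale at the right. In most macrophage rows the KO columns are darker than the control columns of their set except in KO replicate 2 of the Ctrl set. The 4 mast cell proteases at the foot are near the bottom of the scale in most libraries and do not keep this order in every set.

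Compared per kilobase of exon sequence, Lyz2 had the highest level of the 33 genes in the 7 control libraries, at a mean of 479 CPM per kb (147.5 to 1109). Ctss followed at 154 CPM per kb (46.3 to 266), Tyrobp at 72.7 (21.1 to 156) and Cd68 at 54.2 (18.4 to 96.3). The ranges of these neighbours overlap, so their order holds only for the means. Ptprc stood far down the order at 1.85 CPM per kb, and Pilra closed it at 0.489.

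Against WT, the members were lower in KO nearly without exception. A gene was called where edgeR's quasi-likelihood test gave a Benjamini-Hochberg adjusted p under 0.05 and a fold change above 1.5. Of the 30 members tested, 29 fell and 0 rose, while 17.6% of the 15428 genes tested fell. The median log2 fold change of the members was -3.85, beside -0.08 over all genes tested. In 29 of the 30, every KO library lay below every WT library, which held for 24.3% of all genes tested. The member that did not pass was Mcpt4, and Cpa3, Cma1 and Tpsb2 were too low to be tested. Each role took part: 12 of 12 identity genes, 7 of 7 receptors and adaptors, 5 of 5 resident macrophage genes and 5 of 5 effectors fell, with median log2 fold changes of -3.64, -3.87, -5.52 and -3.53. The calls of Itgam (without WT 1, WT 2, WT 3 or KO 2) and Fcgr1 (without any of 5 of the 6 libraries) were lost on leaving out 1 library, with adjusted p of 0.0703 to 0.150 and of 0.0653 to 0.142. The call of Pilra was lost without KO 2 (adjusted p = 0.0513) and that of Mcpt4 gained without WT 3 (adjusted p = 0.0181).

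Against CreCtrl, 25 of 30 members tested fell and 0 rose, while 12.2% of the 15963 genes tested fell. Their median log2 fold change was -3.00, beside -0.02 over all genes tested. All 30 values were negative, and in 29 of the 30 both KO libraries lay below both CreCtrl libraries, as they did in 34.5% of all genes tested. By role, 11 of 12 identity genes, 6 of 7 receptors and adaptors, 3 of 5 resident macrophage genes and 5 of 5 effectors fell. Aif1, Fcgr1, Cd163, Lyve1 and Tpsb2 did not pass, at adjusted p of 0.0550, 0.0576, 0.0679, 0.0759 and 0.470. These calls rest on the spread of 4 libraries. When all 14 libraries were fitted as 6 groups, the spread of the other sets entered. In that fit 3 of the 30 were called, beside 506 of 17662 genes called as lower. Without 1 of the 4 libraries, between 20 and 27 were called, with Itgam, Fcgr3, Pilra, Pf4 and Ly86 losing the call in 2, 1, 3, 2 and 1 of these 4 fits (adjusted p up to 0.213) and Fcgr1 and Lyve1 gaining it without CreCtrl 1 (0.0282 and 0.0485).

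Against Ctrl, no member was called. Of the 28 members tested, 13 log2 fold changes were negative and 15 positive, with a median of 0.07, beside 0.01 over all genes tested. edgeR's test called 0% of the 15287 genes as lower. At an unadjusted p under 0.05, 2 members were lower (Cd163 and Pf4), against 11.4% of all genes. DESeq2 called 0 of the 28 members and 7.16% of all genes as lower. In 2 of the 28 (again Cd163 and Pf4) both KO libraries lay below both Ctrl libraries, against 23.1% of all genes. The 2 KO libraries of this set differed by a median of 10.3-fold over the 27 members for which a ratio could be formed (1.13 to 28.4), KO 2 being the higher. Without KO 2, all 30 members then tested had a negative log2 fold change, with a median of -2.59. At an unadjusted p under 0.05, 20 of these 30 were lower, while 11.4% of the 16126 genes tested in that fit were, and 0 members passed after adjustment. That library was left out after its values were seen, and the KO arm is then 1 library, so that the spread comes from the Ctrl pair and the lone KO library is assumed to vary like it. Leaving out KO 1, Ctrl 1 or Ctrl 2 instead gave medians of 0.85, 0.70 and -0.42.

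**Figure D2:**
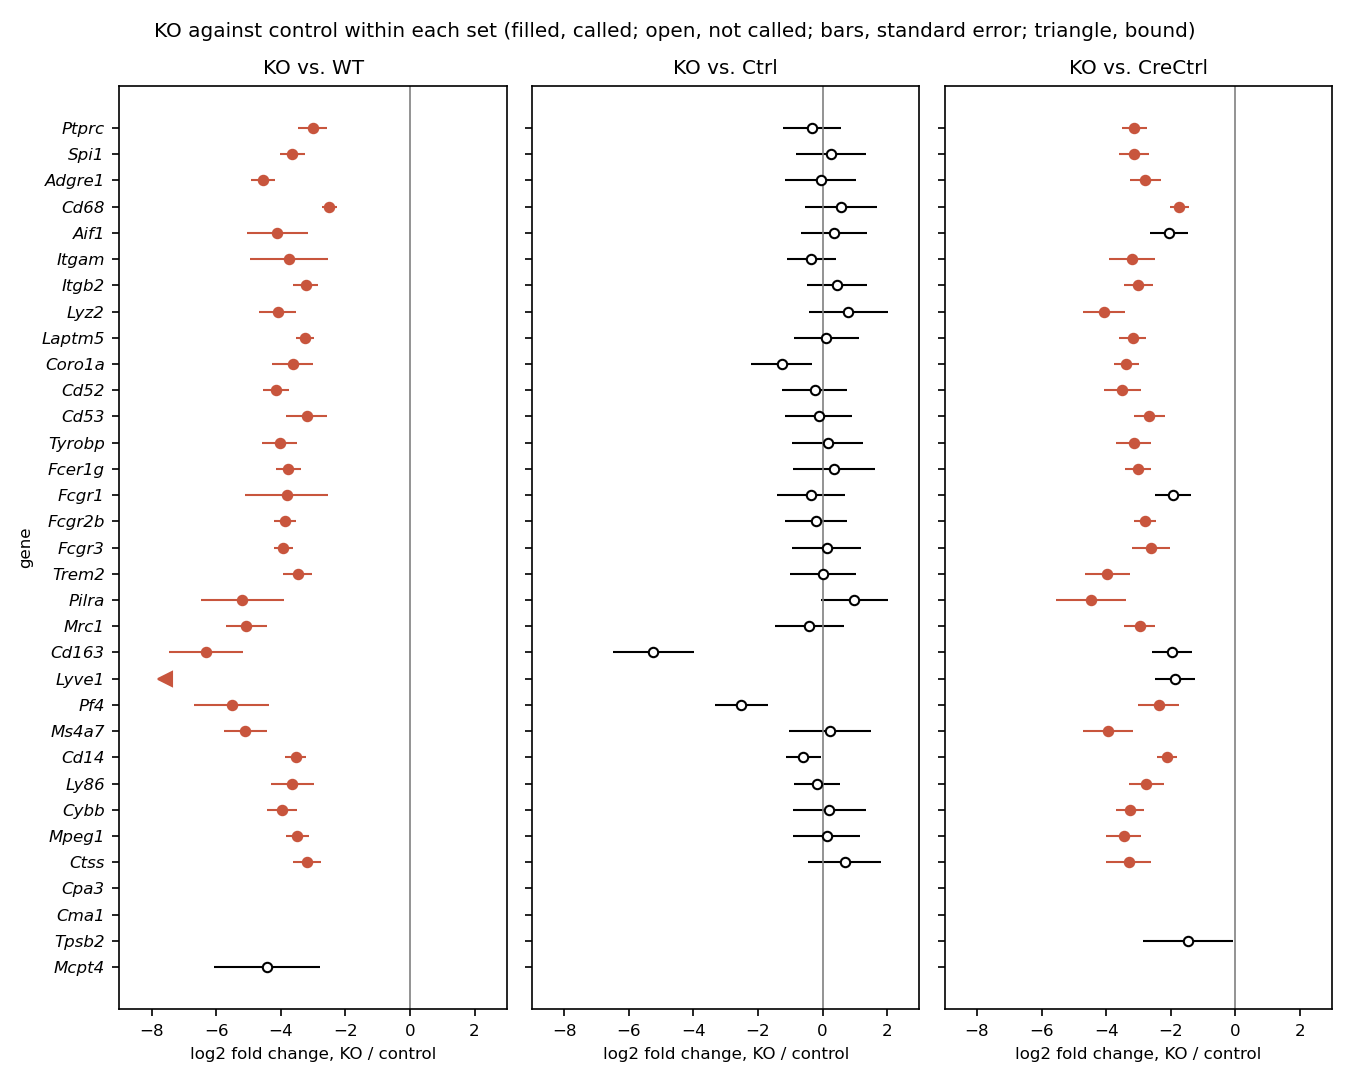
Log2 fold change of each member (rows) in KO against WT, Ctrl and CreCtrl (panels from left to right), with bars of 1 standard error; filled points were called, open points were not, and the triangle marks Lyve1 against WT, where the KO libraries held 0 counts and only a bound can be given. The points against WT and CreCtrl lie left of 0, and those against Ctrl lie around 0 except Cd163 at -5.24 and Pf4 at -2.52.

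Over all 3 sets, with set as a term, 30 of 33 members fell in the 7 KO against the 7 control libraries and 0 rose, while 15.7% of the 17662 genes tested fell. Among them are the 4 mast cell proteases, which passed the filter on counts mainly through control libraries where they were high. The median log2 fold change was -2.61, beside -0.02 over all genes tested. Cd68, Aif1 and Fcgr1 did not pass (adjusted p of 0.0691, 0.0583 and 0.0624), and all 3 passed without KO 2 of the Ctrl set (5.114e-06, 0.0041 and 0.0136). Without that library 32 members were called and the median was -3.32. Without any 1 library the number called ranged from 23 to 32. In 3 of the 33 (Cd163, Lyve1 and Pf4), the KO libraries lay below the controls within every set, against 9.62% of all genes tested. The count of members is thus near the share of all genes. For Lyve1 the order in the Ctrl set rests on 3 counts in Ctrl 1 against 2 and 0 in KO. Lyz2, Fcer1g, Itgam, Pilra, Ms4a7 and Ctss lost the call in 7, 5, 3, 11, 2 and 9 of the 14 fits without a library, at adjusted p between 0.0503 and 0.0951.

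**Figure D3:**
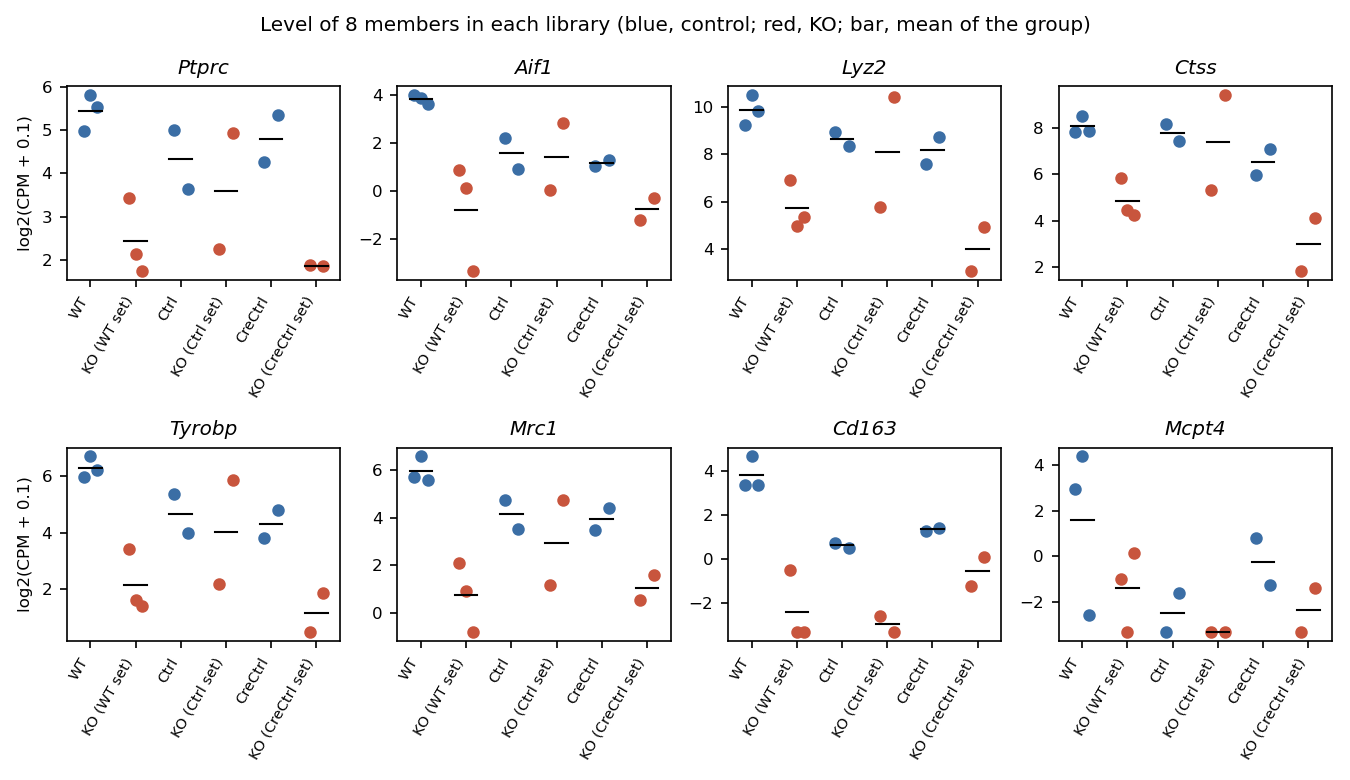
Level of 8 members as log2(CPM + 0.1) in each library (points, blue for control and red for KO) by group, with the group mean as a bar. In Ptprc, Aif1, Lyz2, Ctss, Tyrobp and Mrc1 the upper KO point of the Ctrl set lies among or above the controls, while in Cd163 both KO points of that set lie below them.

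Ptprc encodes CD45, the phosphatase on all nucleated blood cells (ENSMUSG00000026395, chromosome 1, 138062861 to 138175708, minus strand). Its level was 31.4, 56.0 and 46.2 CPM in the WT libraries, 44.5 ± 12.4 (SD, n = 3), and 10.7, 4.33 and 3.27 CPM in the KO libraries of that set, 6.10 ± 4.02 (SD, n = 3). It was 31.9 and 12.4 CPM in Ctrl and 4.64 and 30.6 CPM in their KO, and 19.1 and 40.3 CPM in CreCtrl and 3.58 and 3.52 CPM in their KO. Only in the Ctrl set do the groups overlap, through KO 2. The log2 fold change was -3.02 (SE 0.46, adjusted p = 0.00123) against WT, -3.12 (SE 0.39, adjusted p = 0.00615) against CreCtrl, and -0.31 (SE 0.90, adjusted p = 0.963) against Ctrl.

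Aif1, the gene of the macrophage marker IBA1, was lower in level. It had 16.0, 14.7 and 12.1 CPM in WT and 1.75, 0.977 and 0 CPM in their KO libraries. It had 4.56 and 1.77 CPM in Ctrl against 0.916 and 7.06 CPM in KO, and 1.96 and 2.32 CPM in CreCtrl against 0.333 and 0.712 CPM in KO. All WT libraries were above all other control libraries, and the KO library at 7.06 CPM was above the Ctrl and CreCtrl libraries. Against WT it fell by 4.11 on the log2 scale (SE 0.95, adjusted p = 0.0101).

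Lyz2, the gene of lysozyme M and the most abundant transcript of the list (ENSMUSG00000069516, chromosome 10, 117277331 to 117282321, minus strand), had 607, 1459 and 905 CPM in WT and 119.9, 31.0 and 40.9 CPM in their KO libraries. In the Ctrl set it had 498 and 326 CPM against 55.1 and 1362 CPM in KO, and in the CreCtrl set 194 and 426 CPM against 8.41 and 30.3 CPM in KO. KO 2 of the Ctrl set was thus exceeded only by WT 2. The log2 fold change of Lyz2 was -4.10 (SE 0.57, adjusted p = 0.000773) against WT, -4.05 (SE 0.65, adjusted p = 0.0115) against CreCtrl and 0.80 (SE 1.23, adjusted p = 0.919) against Ctrl.

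Cd68, a glycoprotein of macrophage lysosomes, had the smallest fall of the identity genes against WT. It was at 66.6, 121 and 84.2 CPM in WT and 19.6, 17.0 and 16.5 CPM in their KO, a log2 fold change of -2.51 (SE 0.23, adjusted p = 0.000108). It was at 70.2 and 69.7 CPM in Ctrl and 10.9 and 194 CPM in their KO, and at 23.1 and 42.0 CPM in CreCtrl and 10.6 and 9.96 CPM in their KO. The KO library at 194 CPM exceeded all 7 controls. Adgre1, which encodes the macrophage surface protein F4/80, had 37.9, 48.9 and 48.5 CPM in WT and 2.09, 3.28 and 1.07 CPM in their KO. It had 31.2 and 10.1 CPM in Ctrl against 2.94 and 36.1 CPM in KO, and 6.82 and 14.6 CPM in CreCtrl against 1.21 and 1.99 CPM in KO. Its log2 fold change against WT was -4.55 (SE 0.38, adjusted p = 6.973e-05). The other identity genes (Spi1, Itgam, Itgb2, Laptm5, Coro1a, Cd52 and Cd53, among them PU.1, the Mac-1 integrin chains and lymphoid and myeloid membrane proteins) had log2 fold changes of -4.15 to -3.20 against WT, -3.49 to -2.66 against CreCtrl and -1.27 to 0.45 against Ctrl. Itgam shares 3450 exon bases on its own strand with the predicted gene Gm49368, so its count is uncertain.

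Tyrobp and Fcer1g encode the small ITAM adaptors DAP12 and the Fc receptor gamma chain, through which TREM2 and Fc receptors signal. Tyrobp had 62.9, 104 and 74.2 CPM in WT and 10.7, 3.00 and 2.53 CPM in their KO. It had 40.9 and 15.6 CPM in Ctrl against 4.45 and 58.0 CPM in KO, and 14.1 and 27.6 CPM in CreCtrl against 1.29 and 3.56 CPM in KO. It fell in both of the other sets, with log2 fold changes of -4.04 (SE 0.54, adjusted p = 0.000609) against WT and -3.14 (SE 0.54, adjusted p = 0.0139) against CreCtrl. Fcer1g ran beside it, with 47.4, 73.2 and 57.8 CPM in WT and 7.2, 2.44 and 4.73 CPM in their KO. In the Ctrl set it had 32.2 and 16.5 CPM against 2.09 and 59.4 CPM in KO, and in the CreCtrl set 11.8 and 23.9 CPM against 2.58 and 2.03 CPM in KO. Both adaptors were lower in every KO library than in every control library of all sets, KO 2 of the Ctrl set aside.

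Fcgr2b encodes the inhibitory Fc gamma receptor. It had 40.8, 61.9 and 47.0 CPM in WT and 5.59, 3.14 and 2.60 CPM in their KO, 29.2 and 15 CPM in Ctrl and 3.60 and 34.4 CPM in their KO, and 12.4 and 18.7 CPM in CreCtrl and 1.92 and 2.70 CPM in their KO. Its log2 fold changes were -3.87, -0.20 and -2.80 in that order of sets. The activating receptors Fcgr1 and Fcgr3, the lipid-sensing receptor Trem2 and the paired inhibitory receptor Pilra had log2 fold changes of -5.20 to -3.48 against WT, -4.48 to -1.92 against CreCtrl and -0.35 to 0.98 against Ctrl. Pilra rests on few reads: its summed counts were, as CPM, 37.5 times lower in KO than in WT libraries, with a 95% interval from counting error alone of 12.5 to 185. Exons of Pilra overlap Zcwpw1 on the other strand, and the strand setting of the counting was not stated in the sources used here.

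The resident macrophage genes had the largest median fall of the 4 macrophage groups against WT, and in the Ctrl set their 5 members did not move alike. Mrc1, the mannose receptor CD206 (ENSMUSG00000026712, chromosome 2, 14229392 to 14332057, plus strand), had 53.2, 96.8 and 48.7 CPM in WT and 4.24, 1.81 and 0.467 CPM in their KO. It had 27.2 and 11.5 CPM in Ctrl against 2.16 and 26.5 CPM in KO, and 11.1 and 21 CPM in CreCtrl against 1.33 and 2.92 CPM in KO. The log2 fold change was -5.07 (SE 0.63, adjusted p = 0.000456) against WT and -2.96 (SE 0.48, adjusted p = 0.0119) against CreCtrl. Ms4a7, a tetraspan membrane protein of macrophages, had 41.3, 60.2 and 53.9 CPM in WT and 2.22, 0.140 and 2.60 CPM in their KO. It had 26.1 and 12.3 CPM in Ctrl against 1.5 and 42.5 CPM in KO, and 7.56 and 18.2 CPM in CreCtrl against 0.25 and 1.46 CPM in KO. KO 2 of the Ctrl set lay between its controls in Mrc1 and above them in Ms4a7.

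Cd163, Lyve1 and Pf4 did otherwise, and Cd163 and Pf4 are given by library since they were singled out after their values were seen. Cd163, the haemoglobin scavenger receptor (ENSMUSG00000008845, chromosome 6, 124304656 to 124330527, plus strand), had 10.2, 25.4 and 10.4 CPM in WT and 0.606, 0 and 0 CPM in their KO. It had 1.59 and 1.32 CPM in Ctrl, from 24 and 35 counts, and 0.0654 and 0 CPM in their KO, from 1 and 0 counts. It had 2.35 and 2.57 CPM in CreCtrl and 0.333 and 0.961 CPM in their KO. KO 2 of the Ctrl set thus held 0 counts of Cd163, which allows up to 3 counts, beside Mrc1 at 26.5 CPM. The summed Cd163 counts were, as CPM, 45.5 times lower in KO than in Ctrl libraries (95% interval from counting error 7.86 to 1828), yet its log2 fold change of -5.24 did not pass after adjustment (adjusted p = 0.152). Over all 3 sets its log2 fold change was -4.55 (SE 0.92, adjusted p = 0.00215).

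Pf4, the chemokine CXCL4 that platelets and some tissue macrophages make, had 21.5, 29.8 and 14.3 CPM in WT and 1.55, 0 and 0 CPM in their KO. It had 1.98 and 1.32 CPM in Ctrl against 0.262 and 0.297 CPM in KO, and 2.26 and 3.07 CPM in CreCtrl against 0.791 and 0.285 CPM in KO. The KO libraries of Pf4 lay below the controls in each set, as they did in 3 of 33 members and in 9.62% of all genes tested. The log2 fold change of Pf4 over all 3 sets was -3.71 (SE 0.84, adjusted p = 0.00389). Lyve1, a hyaluronan receptor of lymphatic endothelium and of perivascular macrophages, had 6.43, 21.3 and 11.8 CPM in WT and 0 counts in each of their KO libraries. From 504 summed WT counts, and with the floor of 3 counts over the KO group, it was at least 191-fold lower in KO. It had 0.198 and 1.39 CPM in Ctrl, from 3 and 37 counts, against 0.131 and 0 CPM in KO, from 2 and 0 counts. In the CreCtrl set it had 1.30 and 2.45 CPM against 0.416 and 0.640 CPM in KO.

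The makeup of the list also differed once each library was set to its own Ptprc count. The counts of Cd163, Lyve1 and Pf4 together were 121.6, 136.6 and 78.9 per 100 Ptprc counts in WT, and 20.1, 0 and 0 in their KO. They were 11.8 and 32.4 in Ctrl and 9.86 and 0.971 in their KO, and 31.0 and 20.1 in CreCtrl and 43.0 and 53.5 in their KO. WT libraries were thus the highest, KO libraries lay below their controls in the WT and Ctrl sets, and they lay above them in the CreCtrl set. Lyz2 ran at 1018 to 2624 per 100 Ptprc counts in the controls, at 235 to 1251 in the other 6 KO libraries and at 4458 in KO 2 of the Ctrl set. Ctss had 330 to 1385, 97.7 to 862 and 2223 in the same order. These ratios had no test, and Cd163, Lyve1 and Pf4 were put together after their values were seen. Their low ratio in KO 2 of the Ctrl set follows in part from that choice.

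**Figure D4:**
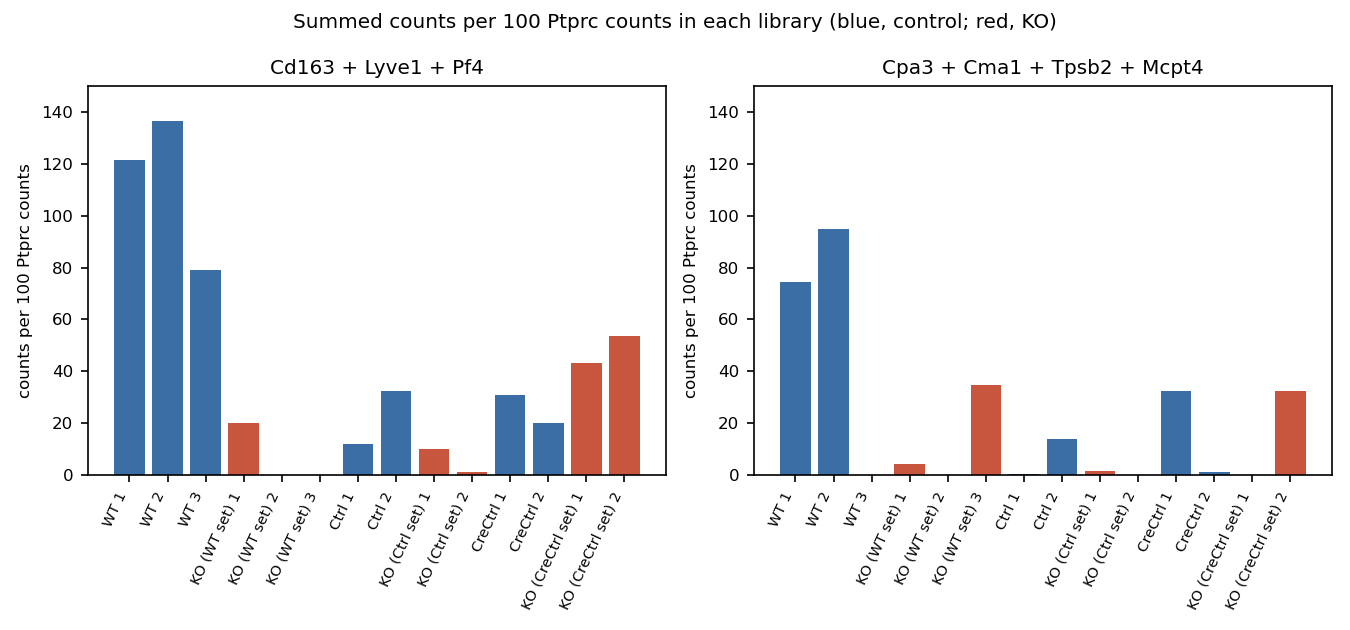
Summed counts of Cd163, Lyve1 and Pf4 (left) and of the 4 mast cell proteases (right) per 100 Ptprc counts in each library, blue for control and red for KO. The left panel is highest in WT, at 78.9 to 136.6, and the right panel is high in WT 1 and WT 2, at 74.6 and 95, and at 0.146 in WT 3. The genes of the left panel were put together after their values were seen.

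The innate effectors fell as a group against WT and CreCtrl (5 of 5 in each). Ctss encodes cathepsin S, a protease of antigen processing and matrix cleavage (ENSMUSG00000038642, chromosome 3, 95526786 to 95556403, plus strand). It had 226, 362 and 228 CPM in WT and 57.2, 22.0 and 18.9 CPM in their KO. It had 282 and 172 CPM in Ctrl against 40.0 and 679 CPM in KO, and 62.9 and 134 CPM in CreCtrl against 3.50 and 17.2 CPM in KO. The KO library at 679 CPM was the highest of all 14. Its log2 fold changes were -3.20 (SE 0.43, adjusted p = 0.000656) against WT and -3.30 (SE 0.70, adjusted p = 0.0266) against CreCtrl.

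Mpeg1, the gene of the pore-forming protein perforin-2, had 179, 248 and 193 CPM in WT and 32.8, 16.6 and 11.9 CPM in their KO. It had 188 and 97.7 CPM in Ctrl against 23.1 and 284 CPM in KO, and 48.2 and 113 CPM in CreCtrl against 4.37 and 10.8 CPM in KO. Cd14, the co-receptor for bacterial lipopolysaccharide, differed from Ctss and Mpeg1 in the Ctrl set. It had 118, 186 and 121 CPM in WT and 19.6, 8.52 and 12.5 CPM in their KO, and 22.4 and 35 CPM in CreCtrl and 5.66 and 8.15 CPM in their KO. In the Ctrl set it had 40.9 and 33.1 CPM against 11.8 and 36.4 CPM in KO, so that KO 2 lay between the Ctrl libraries. The log2 fold change of Cd14 was -3.53 (SE 0.33, adjusted p = 0.000108) against WT, -2.11 (SE 0.31, adjusted p = 0.00872) against CreCtrl and -0.60 (SE 0.54, adjusted p = 0.829) against Ctrl. Ly86 and Cybb, which encode MD-1 and the catalytic subunit of the phagocyte oxidase, fell as well, with log2 fold changes of -3.65 and -3.96 against WT and -2.75 and -3.26 against CreCtrl.

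The mast cell proteases followed single libraries more than groups. Cpa3, mast cell carboxypeptidase (ENSMUSG00000001865, chromosome 3, 20215620 to 20242181, minus strand), had 75, 54 and 0 counts in the WT libraries, 0 in all 3 of their KO, 1 and 8 in Ctrl, 0 and 0 in their KO, 27 and 0 in CreCtrl and 0 and 1 in their KO. Cma1, a chymase, had 44, 140 and 0 counts in WT and 0, 0 and 2 in their KO, 1 and 8 in Ctrl and 0 and 0 in their KO, and 43 and 0 in CreCtrl and 0 and 6 in their KO. Mcpt4, the chymase of connective tissue mast cells, had 92, 242 and 1 counts in WT and 6, 0 and 15 in their KO, 0 and 6 in Ctrl and 0 and 0 in their KO, and 38 and 5 in CreCtrl and 0 and 8 in their KO. The reads thus sat chiefly in WT 1, WT 2 and CreCtrl 1, and WT 3 held next to none. Tpsb2, a tryptase, had 76, 189 and 0 counts in WT and 1, 0 and 0 in their KO, 0 and 24 in Ctrl and 1 and 0 in their KO, and 35 and 2 in CreCtrl and 0 and 17 in their KO.

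The summed level of the 4 proteases was 23.4, 53.2 and 0.0674 CPM in WT, at most 1.73 CPM in Ctrl, 6.21 and 0.439 CPM in CreCtrl and at most 1.14 CPM in the 7 KO libraries. No protease was called within a set, where 1 was tested against WT, 0 against Ctrl and 1 against CreCtrl. Over all 3 sets, 4 of 4 fell, with log2 fold changes of -6.42 in Cpa3 (adjusted p = 0.0041), -4.98 in Cma1 (0.0168), -4.48 in Tpsb2 (0.0464) and -3.75 in Mcpt4 (0.0218). Of the 17662 genes tested, 15.7% fell there. The proteases passed the filter on counts mainly through control libraries where they were high. The direction of these calls was therefore set in part by the filter. The call of Tpsb2 was lost on leaving out any of 10 libraries (adjusted p up to 0.106), that of Mcpt4 on any of 3 (up to 0.0720) and that of Cma1 without CreCtrl 1 (0.0628). Per 100 Ptprc counts the proteases summed to 74.6, 95 and 0.146 in WT, and to 34.7 in KO 3 of that set and 32.3 in KO 2 of the CreCtrl set, against 32.6 in CreCtrl 1. In counts pooled over a group and scaled to CPM, Cpa3 was at least 48.9-fold lower in KO than in WT, with 129 counts in WT and 0 in KO, and Tpsb2 was 301 times lower with a counting interval of 53.6 to 11940. These intervals do not cover the spread between mice, which for the proteases is as wide as WT 2 against WT 3.

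KO replicate 2 of the Ctrl set stood apart. It lay above the other 6 KO libraries in 26 of the 29 macrophage genes (all but Cd163, Lyve1 and Pf4), as it did in 16.8% of the 17662 genes tested over all 14 libraries. It lay above both Ctrl libraries in 20 of the 29, and above all 7 controls in Cd68, Cd53, Cybb, Mpeg1 and Ctss. For these counts the share over all genes was not computed. KO 2 was above the other KO libraries in 0 of the 4 mast cell proteases. The 29 macrophage genes summed to 3290 CPM in it, beside 208 CPM in KO 1 of its set, 1624 and 947 CPM in Ctrl, and 63.3 to 363.9 CPM in the other KO libraries of the WT and CreCtrl sets. Its marker sums of 354.5 CPM for fibroblasts, 56.0 CPM for endothelium and 74730 CPM for RPE were within the range of the other KO libraries. Its sums for erythrocyte markers (214 CPM) and for melanocyte and Schwann cell markers (1108 CPM) were above those of the other 6 KO libraries (28.2 to 197 and 744 to 917 CPM). Their part in its macrophage gene levels was not tested. The other 6 KO libraries lay below all 7 controls in 22 of the 29 macrophage genes, against 7.03% of all genes, the exceptions being Itgam, Coro1a, Fcgr1, Trem2, Pilra, Lyve1 and Pf4. KO 2 was set aside after its high values in these genes were seen, so the gap to 7.03% follows in part from that choice. With it kept, KO lay below control within every set in 3 of 33 members, against 9.62% of all genes.

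**Figure D5:**
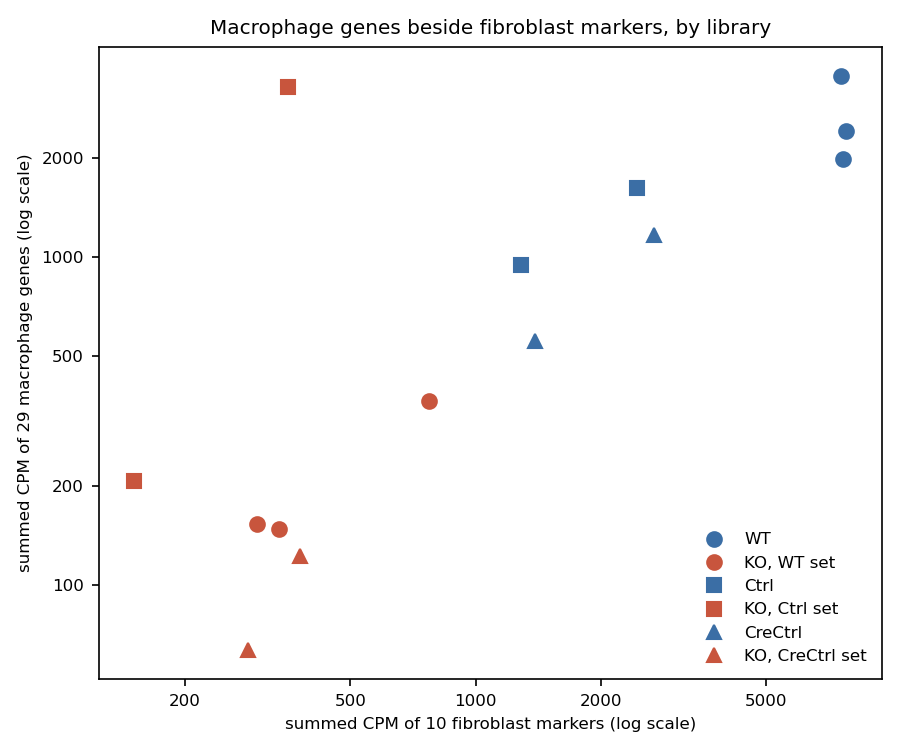
Summed CPM of the 29 macrophage genes (vertical, log scale) against summed CPM of 10 fibroblast markers (horizontal, log scale) in each library, with circles for the WT set, squares for the Ctrl set, triangles for the CreCtrl set, blue for control and red for KO. Controls lie at the upper right and 6 KO libraries at the lower left, and KO 2 of the Ctrl set stands at the upper left with 3290 CPM of macrophage genes and 354.5 CPM of fibroblast markers.

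Whether the KO effect differed between sets was tested as an interaction in 1 fit of 6 groups. Between the WT and Ctrl sets it differed in 3 of 33 members, Adgre1 (-4.35, SE 1.14, adjusted p = 0.0450), Fcgr2b (-3.53, SE 0.94, adjusted p = 0.0483) and Cd14 (-2.80, SE 0.62, adjusted p = 0.0255), each a difference of log2 fold changes with the fall larger in the WT set. Of all genes, 5.15% were called there in either direction. The count of members rests on the processing. It was 1 of 33 (Cd14) with RLE factors and with library size alone, where 3.37% and 3.1% of all genes were called, and 10 of 17 where every library had at least 10 counts, with 7.33% of all genes. Without KO 2 of the Ctrl set, 0 members and 0.52% of all genes were called, and the differences were -1.59, -1.11 and -1.74 (adjusted p of 0.446, 0.478 and 0.143). Between the WT and CreCtrl sets the effect differed in Lyve1 alone (-9.06, adjusted p = 0.0416, a value that rests on 0 counts in the KO libraries of the WT set), against 1.49% of all genes. Between the CreCtrl and Ctrl sets edgeR called 0 members and 0% of all genes, while 19 of 33 members and 8.75% of all genes had an unadjusted p under 0.05. With all libraries the median difference was -2.70 over the members and 0.07 over all genes. Without KO 2, which leaves 1 KO library in the Ctrl set, it was -0.23 over the members and 0.12 over all genes.

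Further genes of the same cells, none of them members, were read from lists of their own. Of all genes tested, 17.6% fell against WT, 0% against Ctrl and 12.2% against CreCtrl. The counts of 0 against Ctrl below therefore say nothing particular about these lists. Of 15 other macrophage genes, 11 of 14 tested fell against WT, 0 of 13 against Ctrl and 9 of 14 against CreCtrl. C1qa, a chain of complement C1q, had 183, 237 and 175 CPM in WT and 26.9, 15.4 and 8.73 CPM in their KO, and 145.6 CPM in KO 2 of the Ctrl set beside 14 CPM in KO 1. Mertk, a phagocytosis receptor that the RPE itself uses, was the macrophage list gene that rose against WT, by 0.92 on the log2 scale (SE 0.24, adjusted p = 0.0168).

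Of 6 microglia genes, 3 of 5 tested fell against WT, 0 of 6 against Ctrl and 2 of 5 against CreCtrl. Olfml3 had 171, 189 and 224 CPM in WT and 16.4, 1.61 and 6.40 CPM in their KO, and 14.4 CPM in KO 2 of the Ctrl set against 35.8 and 15.4 CPM in Ctrl. Tmem119 had 3.50 CPM in that KO library, 2.36 CPM in KO 1 and 23.7 and 4.86 CPM in Ctrl. P2ry12, the microglial ADP receptor, did not exceed 4.56 CPM in any library. In KO 2 of the Ctrl set, Olfml3 and Tmem119 thus lay below both Ctrl libraries, and P2ry12 (1.96 CPM) lay between them.

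Of 12 other mast cell genes, 3 of 5 tested fell against WT, 0 of 4 against Ctrl and 3 of 4 against CreCtrl. Kit, the stem cell factor receptor that melanocytes share, rose by 1.13 against WT (SE 0.23, adjusted p = 0.00524), while Hpgds, a prostaglandin synthase, and the transcription factor gene Gata2 fell, with log2 fold changes of -3.67 and -1.84. Of 10 monocyte and neutrophil genes, 1 of 6 tested fell against WT, 0 of 5 against Ctrl and 6 of 8 against CreCtrl. The 1 of 6 is near the 17.6% of all genes that fell against WT. S100a9, a calgranulin of neutrophils, had log2 fold changes of -3.23 (adjusted p = 0.0590) against WT and -4.21 (adjusted p = 0.00925) against CreCtrl. Of 6 dendritic cell genes, 2 of 4, 0 of 3 and 2 of 4 fell, and Itgax, the integrin CD11c, stood at 30.9 CPM in KO 2 of the Ctrl set and at 2.16 CPM in KO 1. Of 12 lymphocyte genes, 2 of 6, 0 of 4 and 5 of 7 fell, and their sum lay between 1.21 and 27.8 CPM over all 14 libraries.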

How the data were processed

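RNAseq counts of 14 RPE libraries, 1 per mouse, were used. The authors deposited raw counts of reads per Ensembl gene, from stranded poly(A) libraries sequenced with paired ends on an Illumina NovaSeq and aligned to GRCm38 with STAR (the submitters' processing notes name bcl2fastq 2.19, STAR 2.5.2, Cufflinks 2.1.1 and HTSeq 0.11.2 without their roles). The strand setting of the counting is not given in the sources used here. Every column belongs to a library. For names and positions GENCODE M21 was used, where 42329 of 42687 genes were found, and for promoters RefSeq. KO libraries were assigned to sets by how their titles are written.

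KO and control libraries of a set were compared by edgeR's quasi-likelihood test (TMM, filterByExpr, Benjamini-Hochberg over all genes tested), and the 7 KO with the 7 controls with set as a term. Called means an adjusted p under 0.05 and a fold change above 1.5, and for interactions an adjusted p under 0.05. In the plots of levels, 0.1 CPM was added before taking logs. Counting intervals (95%, exact) and the floor of 3 counts cover counting error only. The labels give each library as a mouse of its own, and no library was a repeat of another.

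Members, lists and tests were chosen with earlier results of these data known. Levels in every library are given for Ptprc, Aif1, the 2 members of each role with the highest mean CPM, the 4 proteases and members with a called interaction. Of the further lists, up to 3 genes with the highest mean CPM are named. The result of 1 such gene is not reported here. Alternatives were DESeq2, RLE factors, library size alone, other filters, a fit of 6 groups, a replicate block and leaving out each library. The tests were first run on simulated counts. Tests were run in edgeR 4.0.16 (with limma 3.58.1) and DESeq2 1.42.0 under R 4.3.3. Tables and plots were made with pandas 2.3.3, numpy 2.4.6, scipy 1.17.1 and matplotlib 3.10.9 under Python 3.11.15.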

Additional observations from a re-analysis of the deposited data

Results flagged for a closer look

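Among the 7 KO libraries, which share a genotype, 1 library lay farther from the rest than Dixon's 95% critical value of 0.568 allows in 27 of the 33 genes. Chance flags about 1 in 20 such groups where values are normal, while these were CPM without logs from 3 sets. The share of all genes so flagged was not computed, and genes of the same cells are not independent of each other. In 24 of the 27, the library was KO 2 of the Ctrl set, the highest of the 7. Its CPM were Ptprc 30.6, Spi1 19.2, Adgre1 36.1, Cd68 194, Aif1 7.06, Itgam 6.58, Itgb2 55.3, Lyz2 1362, Laptm5 133, Cd52 11.4, Cd53 21.6, Tyrobp 58, Fcer1g 59.4, Fcgr1 5.7, Fcgr2b 34.4, Fcgr3 37.7, Trem2 41.8, Pilra 1.66, Mrc1 26.5, Ms4a7 42.5, Ly86 9.49, Cybb 87.2, Mpeg1 284, Ctss 679. The other 3 were mast cell proteases at few counts, Cpa3 at 0.0356 CPM and Tpsb2 at 0.605 CPM in KO 2 of the CreCtrl set and Mcpt4 at 0.9997 CPM in KO 3 of the WT set.

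The KO effect differed between sets by the interaction test in 4 members. Of all genes, 5.15% were called between the WT and Ctrl sets and 1.49% between the WT and CreCtrl sets. The difference of log2 fold changes between the WT and Ctrl sets was -4.35 in Adgre1, -3.53 in Fcgr2b and -2.80 in Cd14, and each lost its call without KO 2 of the Ctrl set. Between the WT and CreCtrl sets it was -9.06 in Lyve1, which rests on 0 counts in 3 KO libraries.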

How the results depend on the processing

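Of the results above, the number of members called against WT, against CreCtrl and over all 3 sets stayed within 1.5 times its value under DESeq2, RLE factors, scaling by library size and the filter of at least 1 count. Requiring 10 counts in every library left 18 members against WT, of which 18 were called, and 17 over all 3 sets, of which 17 were called. In these fits 2274 of 12205 and 1911 of 11824 genes were called as lower. Fitting all 14 libraries as 6 groups called 3 against CreCtrl, beside 506 of 17662 genes as lower. Against Ctrl, keeping every gene with at least 1 count called 1 member, Cd163 (adjusted p = 0.0152), beside 1632 of 23965 genes as lower. The KO effect differed between the WT and Ctrl sets in 1 member with RLE factors, in 1 with library size alone, in 10 of 17 with at least 10 counts in every library (7.33% of all genes in that fit) and in 0 without KO 2 of the Ctrl set, a fit added after seeing the data. Between the WT and CreCtrl sets it differed in 0 with at least 10 counts, a filter that removes Lyve1, the member called there. The causes of these shifts beyond fewer genes or samples were not tested. Library size alone shifted the median over every gene tested to -0.32 (log2) against WT, -0.11 against Ctrl, -0.24 against CreCtrl and -0.29 over all 3 sets. Few counts limit the tests of the mast cell proteases most, of which at most 1 could be tested within a set.

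Leaving out 1 library gave member medians of -4.48 to -3.58 against WT and of -2.59 to 0.85 against Ctrl. Of 25 members the sign against Ctrl turned with the library left out, none being called, and the lowest and highest log2 fold changes were Ptprc -2.25 to 0.54, Spi1 -2.14 to 1.39, Adgre1 -2.80 to 0.99, Cd68 -2.67 to 1.49, Aif1 -1.77 to 1.21, Itgam -1.69 to 0.33, Itgb2 -1.90 to 1.29, Lyz2 -2.90 to 1.74, Laptm5 -2.48 to 0.99, Coro1a -2.34 to 0.47, Cd52 -2.47 to 0.58, Cd53 -2.63 to 0.74, Tyrobp -2.66 to 1.05, Fcer1g -3.53 to 1.30, Fcgr1 -2.20 to 0.97, Fcgr2b -2.61 to 0.65, Fcgr3 -2.67 to 1.01, Trem2 -2.54 to 0.88, Pilra -0.40 to 1.67, Mrc1 -3.15 to 0.47, Ms4a7 -3.66 to 1.16, Ly86 -1.26 to 0.48, Cybb -3.02 to 1.12, Mpeg1 -2.62 to 1.01, Ctss -2.50 to 1.59. Against CreCtrl, Tpsb2 went from -7.17 to 1.17. With library size alone, Laptm5 (-0.0236), Fcgr3 (-0.0214), Trem2 (-0.13) and Mpeg1 (-0.0156) turned negative against Ctrl, as did Trem2 (-0.00827) with at least 10 counts.

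The labels do not say that a replicate number pairs mice. Deviations from the group mean of same-numbered control and KO libraries correlated across 11617 genes at -0.03, 0.09 and 0.27 for WT, at -0.03 for both Ctrl pairs and at 0.27 for both CreCtrl pairs, and WT 1 correlated best with KO 2, so the numbers were not taken as a pairing. With the replicate block, 28 members were called against WT, 0 against Ctrl, 28 against CreCtrl and 27 over all 3 sets. Over all genes tested it called 2471 of 15428, 113 of 15287, 2702 of 15963 and 2412 of 17662 as lower, in that order. Against Ctrl the block turned 14 members negative, none of them called: Spi1 -0.21, Cd68 -0.55, Aif1 -0.0668, Itgb2 -0.22, Lyz2 -0.53, Laptm5 -0.63, Tyrobp -0.57, Fcer1g -0.88, Fcgr3 -0.63, Trem2 -0.64, Ms4a7 -0.97, Cybb -0.79, Mpeg1 -0.71, Ctss -0.39.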
